A study of Mus musculus with 12 samples.

Results

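The 10 genes described here encode the central steps of MHC class I antigen presentation in mouse macrophages: the heavy chains H2-K1 and H2-D1, their light chain B2m, the peptide transporter subunits Tap1 and Tap2, the loading factor Tapbp (tapasin), the inducible proteasome subunits Psmb8, Psmb9 and Psmb10, and the transactivator Nlrc5. They were chosen by name from the 47937 genes of the read count matrix, each identifier being matched to its symbol after its version was dropped, and all 10 passed the filter on low counts. Cells of C57BL/6 bone marrow were grown with 20 ng/ml CSF-1 for 7 days, so that every group shares this differentiation in culture. In M0 the macrophages were resting. In M1_18h, written IFNγ + LPS here, they had received 50 ng/ml IFNγ and 20 ng/ml LPS for 18 h. In DGAT1i_18h, resting cells were treated with 50 µM T863, an inhibitor of DGAT1, the enzyme that makes triglycerides from diacylglycerols. In DGAT1i_M1_18h, the same dose was given to cells with IFNγ and LPS. Each group had 3 libraries, and nothing in the labels says whether they came from separate animals or cultures, so that p-values may measure only the spread between these samples, which may be technical. For 2 of the 3 libraries of DGAT1i_18h, a description gives the inhibitor another number while the source name gives T863, and they were used as T863. By the study's methods the mice were used at 6 to 8 weeks of age.

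Most cells display peptides from their own proteins on MHC class I. The proteasome cuts the proteins, TAP moves the peptides into the endoplasmic reticulum, tapasin and its partners help to load them onto heavy chain and β2-microglobulin, and the complex travels to the surface where CD8+ T cells read it. Interferon γ, acting in part through IRF1 and NLRC5, raises most of these genes together and replaces the constitutive catalytic subunits of the proteasome by inducible ones.

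Of the 10 genes, 7 lie on chromosome 17 in or beside the MHC (GENCODE M21, GRCm38). H2-K1 is at chr17:33996017-34000347 on the minus strand and H2-D1 at chr17:35262730-35267499 on the plus strand. Psmb9 (chr17:34181987-34187764, minus strand), Tap1 (chr17:34187553-34197225, plus), Psmb8 (chr17:34197721-34201454, plus) and Tap2 (chr17:34203527-34216321, plus) stand next to each other, and Tapbp is at chr17:33915899-33929292 on the plus strand. B2m is at chr2:122147686-122153083, while Psmb10 (chr8:105935735-105938444) and Nlrc5 (chr8:94434356-94527272) are on chromosome 8. All 10 are protein-coding, and the counts cover whole genes rather than single exons.

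The sequences just before the start sites are shown because all 10 genes rose together. They are RefSeq windows on GRCm38.p6, from 250 bases before the start to 50 bases after it, written 5′ to 3′ on the gene's strand. Of the 10 genes 8 had a window, and H2-K1 had a further one (chr17:34000284-34000583), not shown. In the windows of H2-K1 (chr17:34000298-34000597), H2-D1 (chr17:35262844-35263143) and B2m (chr2:122147437-122147736), capitals mark matches to the NF-kB consensus and, in B2m, also the core of an interferon-stimulated response element.
H2-K1: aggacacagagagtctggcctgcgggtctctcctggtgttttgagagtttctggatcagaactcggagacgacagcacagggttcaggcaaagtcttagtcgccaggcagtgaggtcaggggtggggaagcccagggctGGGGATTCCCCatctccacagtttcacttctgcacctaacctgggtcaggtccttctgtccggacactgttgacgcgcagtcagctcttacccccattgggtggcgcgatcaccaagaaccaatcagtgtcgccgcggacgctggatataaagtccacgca
H2-D1: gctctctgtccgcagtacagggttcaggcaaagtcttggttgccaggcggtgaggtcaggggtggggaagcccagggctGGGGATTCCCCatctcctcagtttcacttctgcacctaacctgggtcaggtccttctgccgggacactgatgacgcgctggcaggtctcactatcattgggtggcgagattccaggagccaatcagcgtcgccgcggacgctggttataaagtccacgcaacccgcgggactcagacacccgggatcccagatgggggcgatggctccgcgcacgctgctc
B2m: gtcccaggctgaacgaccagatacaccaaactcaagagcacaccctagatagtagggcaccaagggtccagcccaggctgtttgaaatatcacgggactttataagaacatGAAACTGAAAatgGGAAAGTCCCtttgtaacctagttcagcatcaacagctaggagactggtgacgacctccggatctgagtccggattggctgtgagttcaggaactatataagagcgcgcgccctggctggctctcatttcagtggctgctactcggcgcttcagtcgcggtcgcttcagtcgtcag

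H2-K1 and H2-D1 carry the same capitals inside a run of 47 bases that is identical in both windows and begins 141 bases before the start of H2-K1 and 201 bases before that of H2-D1. These letters match the NF-kB consensus on both strands. In B2m, the response element core (GAAANNGAAA, 2 copies of GAAA separated by any 2 bases) spans from 139 to 130 bases before the start, and the NF-kB match follows between 126 and 117 bases before it. Of 32851 promoter windows of this length, 3.443% hold the core and 8.459% the NF-kB consensus on either strand, against 1 and 3 of the 8 genes here. The further window of H2-K1 holds the same NF-kB match and was not counted apart. The CCAAT box (CCAAT) was in windows of 6 of the 8 genes and in 37.408% of all windows. Its matches in Tap1 and Psmb9 are the same bases read on opposite strands. The counts are by gene and the shares by window, which are unlike units.

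Psmb8 is the only one of the 8 with a match to the interferon γ-activated site (TTCNNNGAA), which 8.298% of all windows hold. It is in capitals in the window chr17:34197945-34198244, from 97 to 89 bases before the start. The Tap1 window (chr17:34187306-34187605) is shown because it is nearly that of Psmb9 read on the other strand. The RefSeq starts of both genes are 226 bases apart, they point away from each other, and their windows share 275 bases. In GENCODE M21 the genes overlap instead, by 212 bases at these ends. The Tap1 window holds no GAS, response element core or NF-kB match, which says only that these letters are not in this stretch.
Psmb8: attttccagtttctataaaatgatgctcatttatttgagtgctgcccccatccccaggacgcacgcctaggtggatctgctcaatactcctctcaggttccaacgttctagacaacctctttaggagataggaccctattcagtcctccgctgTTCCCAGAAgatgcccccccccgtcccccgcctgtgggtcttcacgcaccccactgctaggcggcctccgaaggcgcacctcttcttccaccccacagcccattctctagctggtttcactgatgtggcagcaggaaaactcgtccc
Tap1: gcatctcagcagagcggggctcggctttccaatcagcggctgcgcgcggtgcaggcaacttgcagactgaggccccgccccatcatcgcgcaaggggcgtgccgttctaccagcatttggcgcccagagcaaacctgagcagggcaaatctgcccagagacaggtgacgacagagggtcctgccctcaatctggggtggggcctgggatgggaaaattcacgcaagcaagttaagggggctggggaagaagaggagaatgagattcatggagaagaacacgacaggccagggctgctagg

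The 12 libraries held between 4996014 and 6621671 reads. Levels are given as CPM, the reads of a gene relative to the TMM-scaled size of its library, and 1 CPM stands for 4.28 to 7.58 reads, and each of the 10 genes had at least 19.7 CPM in every library. Macrophage markers were high throughout (7 genes summing to 12944 to 14197 CPM in M0, 15951 to 17985 CPM in M0 with DGAT1i and 7818 to 8876 CPM in the activated groups). Lyz2 carried most of the sum in M0 but not in IFNγ + LPS, with means of 9641 and 2956 CPM, while Adgre1 (1316 and 2706 CPM), Mertk (71.4 and 459 CPM) and Fcgr1 (91.1 and 857 CPM) were higher after activation and Csf1r (1261 and 847 CPM), Cd68 (1043 and 631 CPM) and Itgam (159.7 and 129.6 CPM) lower. The 4 activation markers (Nos2, Acod1, Il12b, Cxcl9) summed to at most 0.924 CPM in the resting groups and to between 12148 and 13236 CPM in the activated groups. Markers of B cells, T and NK cells, fibroblasts and erythroid cells summed to under 1 CPM in every library. In bulk RNA, fewer cells that express a gene cannot be told apart from less RNA per cell.

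The first comparison asks how the pathway responds to inflammatory activation. All 10 genes rose with IFNγ + LPS, each of them over 2-fold (edgeR quasi-likelihood fit, p-values adjusted by Benjamini-Hochberg over all genes, threshold 0.05). Over all 11760 genes tested, 37.1% rose and 15% rose over 2-fold, 36.2% fell, and the median log2 fold change was 0.01, against 3.16 over the 10 genes. Together the 10 genes took 0.362 to 0.380% of all reads in M0 and 1.73 to 1.77% in IFNγ + LPS. The smallest rise was that of H2-D1 and the largest that of Tap1. The 5 conventional dendritic cell markers summed to 0.133 to 0.696 CPM in M0 and 14.4 to 19.6 CPM in IFNγ + LPS, and the 8 neutrophil and precursor markers to 31.6 to 38.7 and 15.2 to 25.5 CPM. Their part in the rise was not tested.

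**Figure D1:**
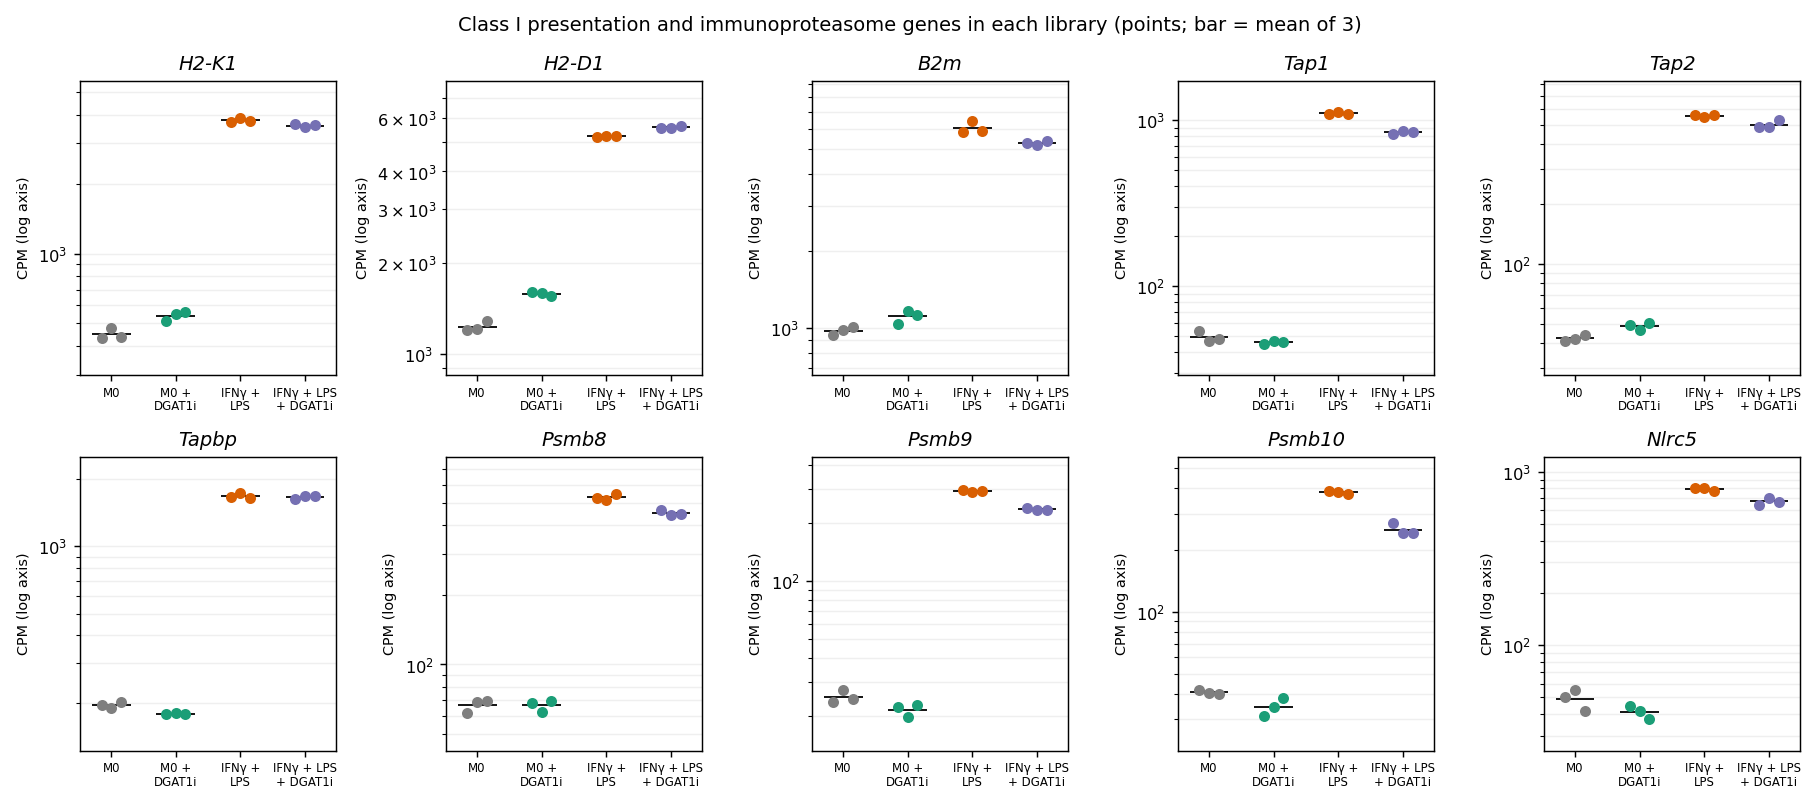
CPM (log axis, a separate scale for each gene) of the 10 genes in the 3 libraries of M0, M0 with DGAT1i, IFNγ + LPS and IFNγ + LPS with DGAT1i. Points are libraries and bars are means of 3. In every panel the activated libraries lie above all resting ones, while the step with DGAT1i is small and differs in direction between genes.

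The classical heavy chains, which hold the peptide, both rose, H2-K1 more than H2-D1. H2-K1 had 434, 476 and 437 CPM in M0 and 3710, 3851 and 3767 CPM in IFNγ + LPS, a log2 fold change of 3.07 ± 0.06 (SE, n = 3 per group, edgeR adjusted p = 8.01e-47). H2-D1 had 1202, 1207 and 1285 CPM in M0 and 5195, 5239 and 5220 CPM in IFNγ + LPS, a log2 fold change of 2.08 ± 0.05 (SE, edgeR adjusted p = 5.33e-40). Per kb of merged exon, the mean level of H2-D1 was 477 CPM against 153 CPM for H2-K1 in M0, and 2023 against 1285 CPM in IFNγ + LPS. B2m, the light chain that class I molecules need to fold, had 940.3, 986 and 1007 CPM in M0 and 5832, 6449 and 5866 CPM in IFNγ + LPS, a log2 fold change of 2.63 ± 0.06 (SE, edgeR adjusted p = 3.24e-43). In all 3 genes the groups were far apart.

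Of the 10 genes Tap1 rose most, followed by Nlrc5 and Tap2. Tap1, which with Tap2 forms the pump for peptides, had 53.6, 46.6 and 48.2 CPM in M0 and 1090, 1129 and 1098 CPM in IFNγ + LPS, 22.4-fold more (log2 fold change 4.48 ± 0.06, SE, edgeR adjusted p = 7.73e-53). Tap2 had 41.0, 41.8 and 44.0 CPM in M0 and 560.3, 550.5 and 561 CPM in IFNγ + LPS, 13.2-fold more (log2 3.72 ± 0.06, SE). Neither gene's groups came near each other. Tapbp, which bridges TAP and the empty class I molecule, had 195, 189.9 and 202 CPM in M0 and 1668, 1724 and 1642 CPM in IFNγ + LPS, a log2 fold change of 3.10 ± 0.05 (SE).

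The immunoproteasome subunits rose between 7.93-fold and 11.7-fold. Psmb8 (LMP7) had 61.5, 69.1 and 69.6 CPM in M0 and 527, 515 and 548 CPM in IFNγ + LPS, a log2 fold change of 2.99 ± 0.06 (SE). Psmb9 (LMP2) had 23.7, 27.3 and 24.5 CPM in M0 and 298, 291 and 296 CPM in IFNγ + LPS, a log2 fold change of 3.55 ± 0.07 (SE). Psmb10 (MECL-1) had 41.7, 40.4 and 40.0 CPM in M0 and 384, 383 and 372 CPM in IFNγ + LPS, a log2 fold change of 3.22 ± 0.06 (SE). Nlrc5, which drives class I genes in the nucleus, had 50.1, 54.7 and 41.8 CPM in M0 and 804, 799.8 and 774 CPM in IFNγ + LPS, 16.2-fold more (log2 4.02 ± 0.07, SE). No library of M0 reached the lowest activated library for any of the 10 genes. How many of all genes separate in this way was not counted.

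Levels can be set between genes only per length. Per kb of merged exon, mean CPM in IFNγ + LPS was highest for B2m (7034 ± 403.5 SD), then H2-D1 (2023 ± 8.59), H2-K1 (1285 ± 24.2) and Tapbp (462 ± 11.6). Psmb10 (223 ± 4.01), Tap1 (202 ± 3.73), Psmb8 (157 ± 4.85) and Tap2 (147 ± 1.57) followed, and Nlrc5 (93.3 ± 1.91) and Psmb9 (80.6 ± 0.97) were lowest. Over the length of the longest transcript, Psmb10 (290), Tap1 (283) and Psmb8 (278 CPM per kb) lay so close that their order cannot be read, although the order of the 10 genes was the same. In M0, Psmb10 (23.9), Psmb8 (19.7), Tap2 (11.2), Tap1 (9.03), Psmb9 (6.88) and Nlrc5 (5.75 CPM per kb of merged exon) stood below Tapbp (54.0). Over the longest transcript Psmb8 (35.0) was above Psmb10 (31.0) and Tap1 (12.6) above Tap2 (12.3) in M0, so the order within these pairs rests on the length used.

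The second comparison asks what DGAT1 inhibition does to the activated state. With DGAT1i, 7 of the 10 genes were lower in IFNγ + LPS and 0 passed the test as higher. Over all genes tested, 16.3% were lower and 13.5% higher. At an unadjusted p under 0.05, 8 of the 10 differed in edgeR, H2-D1 being the further one and higher. DESeq2 called 7 as lower and H2-D1 as higher, beside 2562 called of all 22191 genes with reads. The share of all genes at an unadjusted p is not given here. The steps were small beside the activation itself: the median log2 difference was -0.21 over the 10 genes against -0.01 over all genes. None of the 10 reached 2-fold in edgeR or DESeq2 (0 of 10), but the share of all genes that did is not given here. The 7 calls lay between -0.60 (Psmb10) and -0.15 (Tap2). The share of all reads taken by the 10 genes was 1.61 to 1.65% with DGAT1i, below the 1.73 to 1.77% without it. In the same libraries, markers of other myeloid cells moved. The summed level of 5 conventional dendritic cell markers was 14.4 to 19.6 CPM without and 6.38 to 9.11 CPM with DGAT1i, with Xcr1 at 5.04 to 6.32 and 0.417 to 1.17 CPM, Clec9a at 6.37 to 9.69 and 2.09 to 2.88 CPM, Ccr7 at 2.44 to 5.04 and 2.26 to 5.37 CPM, Flt3 at no more than 1 read and Zbtb46 at 1 to 5 reads in every library of both groups. The summed level of 8 neutrophil and precursor markers was 15.2 to 25.5 CPM without and 63.0 to 81.0 CPM with DGAT1i, S100a8 (8.28 to 10.5 CPM without and 29.7 to 41.6 CPM with DGAT1i) and S100a9 making up most of it and Ly6g being at 0 throughout. Among the activation markers, mean Cxcl9 was 2584 CPM without and 1819 CPM with DGAT1i, Nos2 4785 and 5628 CPM, Acod1 5273 and 5279 CPM and Il12b 83.9 and 103 CPM. Among the macrophage markers, Adgre1 (2706 and 2114 CPM), Fcgr1 (857 and 709 CPM) and Itgam (129.6 and 85.4 CPM) fell and Cd68 (631 and 878 CPM) rose in edgeR, while Lyz2 (2956 and 3107 CPM), Csf1r (847 and 860.0 CPM) and Mertk (459 and 492 CPM) did not pass. Their part in the differences was not tested.

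**Figure D2:**
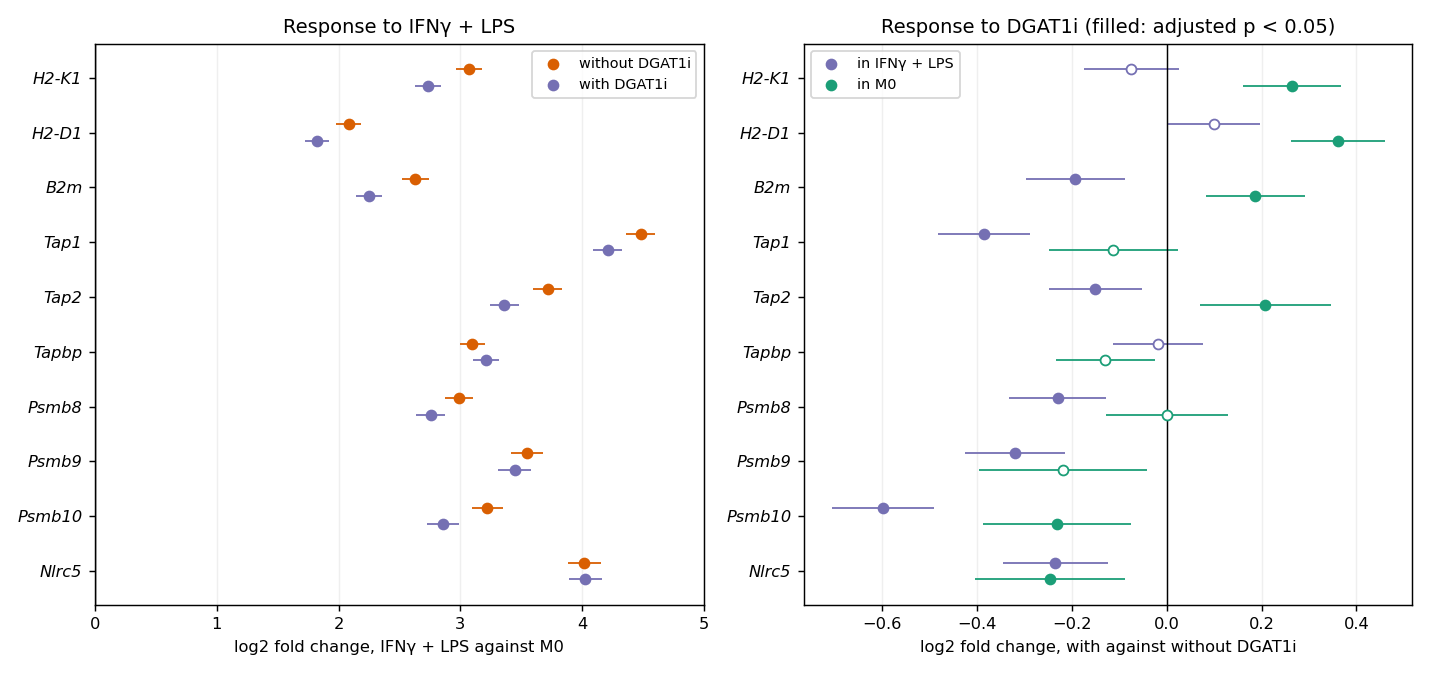
Log2 fold changes (x axes) of the 10 genes, with bars as 95% intervals of the edgeR fit. Left, IFNγ + LPS against M0, without and with DGAT1i. Right, with against without DGAT1i, in IFNγ + LPS and in M0, filled where the adjusted p is under 0.05. All rises to the left lie above 1, and the DGAT1i differences to the right lie between -0.60 (Psmb10 in IFNγ + LPS) and 0.36 (H2-D1 in M0).

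Of the 10 genes Psmb10 fell most with DGAT1i. The estimated fall of Tap1 was larger than those of Psmb8 and Psmb9, but differences between genes were not tested. Psmb10 had 269.9, 241 and 241 CPM with DGAT1i, all below the 372 to 384 CPM without it, and fell by 0.60 ± 0.06 on the log2 scale (SE, edgeR adjusted p = 3.5e-13). Psmb9 had 239, 236 and 234 CPM and fell by 0.32 ± 0.05 (SE, edgeR adjusted p = 3.93e-06). Psmb8 had 465, 443 and 448 CPM and fell by 0.23 ± 0.05 (SE, edgeR adjusted p = 0.000425). For each of these 3 subunits the groups do not overlap, which was not counted over all genes.

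Tap1 had 822, 867 and 851 CPM with DGAT1i, against at least 1090 CPM in IFNγ + LPS alone, and fell by 0.38 ± 0.05 on the log2 scale (SE, edgeR adjusted p = 8.1e-09). Tap2 had 491, 489 and 528 CPM and fell by 0.15 ± 0.05 (SE, edgeR adjusted p = 0.0177). Its call was lost without the first library of DGAT1i_M1_18h (adjusted p = 0.0557) and without the second (adjusted p = 0.0719). Tapbp had 1628, 1671 and 1674 CPM, which overlap the 1642 to 1724 CPM without DGAT1i, and the interval of its log2 difference ran from -0.11 to 0.08 (edgeR adjusted p = 0.831).

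B2m had 5283, 5212 and 5384 CPM with DGAT1i, below the 5832 to 6449 CPM without it, and fell by 0.19 ± 0.05 (SE, edgeR adjusted p = 0.00379). Nlrc5 had 640.2, 709 and 671 CPM and fell by 0.24 ± 0.06 (SE, edgeR adjusted p = 0.00103). The heavy chains did not pass. H2-K1 had 3629, 3531 and 3591 CPM, all under the lowest library without DGAT1i, with a 95% interval of the log2 difference from -0.18 to 0.02 (edgeR adjusted p = 0.285). H2-D1 had 5561, 5564 and 5653 CPM, all above the 5195 to 5239 CPM without DGAT1i. Its log2 difference was 0.10 ± 0.05 (SE, edgeR adjusted p = 0.126), and it passed as higher in the DESeq2 Wald test (adjusted p = 0.03) and when only the 6 libraries compared were fitted (edgeR adjusted p = 0.0453).

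In resting cells the pattern was mixed. With DGAT1i in M0, 4 of the 10 genes rose and 2 fell, beside 11% and 13.4% of all genes tested, and the median log2 difference was -0.06 over the 10 genes and 0.00 over all genes. The genes that rose were H2-K1, H2-D1, B2m and Tap2, and those that fell were Psmb10 and Nlrc5. Under RLE size factors 4 rose and 4 fell, and with library sizes alone 2 rose and 4 fell. Only 2 calls were made without the first library of M0, 3 without the second, and 4 with each library of DGAT1i_18h left out in turn. In these libraries the macrophage markers summed to 15951 to 17985 CPM with DGAT1i, above M0, most of which was Lyz2 (9641 CPM in the mean of M0 and 13045 CPM with DGAT1i), and Cd68 (1043 and 1333 CPM), Mertk (71.4 and 107 CPM), Fcgr1 (91.1 and 102 CPM) and Itgam (159.7 and 168 CPM) also had the higher mean with DGAT1i, while Adgre1 (1316 and 1164 CPM) and Csf1r (1261 and 1181 CPM) had the lower. In the same libraries the 8 neutrophil and precursor markers summed to 22.9 to 29.0 CPM against 31.6 to 38.7 CPM in M0. Their part in the differences was not tested.

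H2-D1 had 1602, 1586 and 1557 CPM with DGAT1i in M0, all above M0 alone, and rose by 0.36 ± 0.05 on the log2 scale (SE, edgeR adjusted p = 5.84e-08). H2-K1 had 512, 548 and 558 CPM, also above every M0 library, and rose by 0.26 ± 0.05 (SE, edgeR adjusted p = 8.28e-05). These 2 calls held with every library left out in turn. B2m had 1040, 1169 and 1131 CPM and rose by 0.19 ± 0.05 (SE, edgeR adjusted p = 0.00654). It did not pass without the first library of M0 (adjusted p = 0.0683) or the second of DGAT1i_18h (adjusted p = 0.0768), nor under library sizes alone (adjusted p = 0.0613). Tap2 had 49.5, 46.7 and 50.1 CPM, against 41.0 to 44.0 CPM in M0, and rose by 0.21 ± 0.07 (SE, edgeR adjusted p = 0.0236). It did not pass without the first or second library of M0 or the first or the third of DGAT1i_18h (adjusted p = 0.0956, 0.0749, 0.0748 and 0.0896), nor in DESeq2 (adjusted p = 0.0921), with no filter (0.0635) or under library sizes alone (0.119).

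Psmb10 had 31.2, 34.4 and 38.3 CPM with DGAT1i in M0, all below the lowest M0 library, and fell by 0.23 ± 0.08 (SE, edgeR adjusted p = 0.0254). Without the first or second library of M0 or the first or second of DGAT1i_18h it did not pass (adjusted p = 0.0855, 0.0514, 0.21 and 0.0699). Nlrc5 had 44.5, 41.9 and 37.3 CPM, overlapping the 41.8 to 54.7 CPM of M0, and fell by 0.25 ± 0.08 (SE, edgeR adjusted p = 0.0188). It did not pass without the first or second library of M0 or the third of DGAT1i_18h (adjusted p = 0.0746, 0.225 and 0.144). The other 4 genes did not pass. Tap1 had 44.5, 46.6 and 46.1 CPM, with an interval of the log2 difference from -0.25 to 0.02 (edgeR adjusted p = 0.257). Tapbp had 178, 179.7 and 179 CPM, below the 189.9 to 202 CPM of M0, with an interval from -0.23 to -0.03 (edgeR adjusted p = 0.0675). Psmb9 had 22.2, 19.7 and 22.96 CPM (interval -0.40 to -0.04, edgeR adjusted p = 0.0707), and Psmb8 had 68.0, 62.5 and 69.8 CPM (interval -0.13 to 0.13, edgeR adjusted p = 0.999). Tapbp passed as lower under RLE size factors (adjusted p = 0.0332), under library sizes alone (adjusted p = 0.0049) and in DESeq2 (adjusted p = 0.0168), and Psmb9 under RLE size factors (adjusted p = 0.0468) and library sizes alone (adjusted p = 0.0201).

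The difference between both DGAT1i responses was tested directly in the same fit. It was below 0, the response in IFNγ + LPS being the lower, for 7 of the 10 genes and above 0 with a passed test for 0, beside 9.8% and 8.66% of all genes tested. In edgeR the same count of 7 had an unadjusted p under 0.05, a rule whose share of all genes is not given here. DESeq2 called 6, all below 0, beside 1478 called of all 22191 genes with reads. B2m (log2 difference -0.38 ± 0.08, edgeR adjusted p = 0.000139), Psmb10 (-0.37 ± 0.10, adjusted p = 0.00404), Tap2 (-0.36 ± 0.09, adjusted p = 0.00163) and H2-K1 (-0.34 ± 0.07, adjusted p = 0.000446) differed most. H2-K1, H2-D1, B2m and Tap2 rose with DGAT1i in M0, whereas in IFNγ + LPS B2m and Tap2 fell and H2-K1 and H2-D1 did not pass. Tap1 (-0.27 ± 0.09, adjusted p = 0.0177), H2-D1 (-0.26 ± 0.07, adjusted p = 0.00509) and Psmb8 (-0.23 ± 0.08, adjusted p = 0.0453) differed less. The call for Tap1 was lost without the second library of M0 (adjusted p = 0.0731) and under library sizes alone (0.0583). That for Psmb8 was lost under 7 of the 12 libraries left out in turn, under RLE size factors, under library sizes alone and in DESeq2. Its adjusted p lay between 0.0254 and 0.181 over all alternatives. Psmb9 (-0.10 ± 0.11, adjusted p = 0.561), Nlrc5 (0.01 ± 0.10, adjusted p = 0.958) and Tapbp (0.11 ± 0.07, adjusted p = 0.299) did not pass.

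Where DGAT1i was present throughout, all 10 genes still rose with IFNγ + LPS, each over 2-fold, beside 35.3% and 13.9% of all genes tested. The rise was largest for Tap1 (18.5-fold, log2 4.21 ± 0.06 SE) and smallest for H2-D1 (3.54-fold, log2 1.82 ± 0.05 SE). Each of the 4 groups enters more than 1 of the comparisons, so that their values are given side by side and not as separate evidence.

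In ordinary proteasomes Psmb5, Psmb6 and Psmb7 are the catalytic subunits, and Psmb8, Psmb9 and Psmb10 replace them in that order. Each ratio of the inducible to the constitutive gene was taken per library, from reads per kb of exon. In M0, Psmb8 to Psmb5 was 0.311, 0.389 and 0.391. After activation it was 1.32, 1.36 and 1.39 without DGAT1i and 1.08, 1.13 and 1.04 with it. Psmb9 to Psmb6 went from a mean of 0.127 ± 0.00535 (SD, n = 3) in M0 to 0.660 ± 0.0236 in IFNγ + LPS and was 0.506 ± 0.00928 with DGAT1i. Psmb10 to Psmb7 went from 1.12 ± 0.0494 to 4.76 ± 0.158, and was 3.44 ± 0.212 with DGAT1i. For each of the 3 pairs, every activated library without DGAT1i lay above every activated library with it, and both lay above all resting libraries. Over the longest transcript, the mean ratios in IFNγ + LPS were 2.41, 0.432 and 5.15 in the same order of pairs. The level of a ratio thus rests on the length used, while its changes between groups do not.

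On a log2 scale the ratios rose with IFNγ + LPS by 1.91, 2.38 and 2.09, in the order above, and with DGAT1i in IFNγ + LPS they fell by 0.33, 0.38 and 0.47. The exact two-sided permutation test gave p = 0.1 for each of these, the smallest p that 3 against 3 libraries allow, and 0.133 after Benjamini-Hochberg adjustment over the 12 comparisons made. In M0 the ratios with DGAT1i were 0.321 ± 0.0259, 0.108 ± 0.0185 and 0.986 ± 0.143 (SD), with exact p of 0.3, 0.2 and 0.3, and each overlapped M0. The denominators did not pass with DGAT1i in IFNγ + LPS. Psmb5 had a log2 difference of 0.10 (edgeR adjusted p = 0.273), Psmb6 of 0.06 (adjusted p = 0.446) and Psmb7 of -0.13 (adjusted p = 0.0997).

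**Figure D3:**
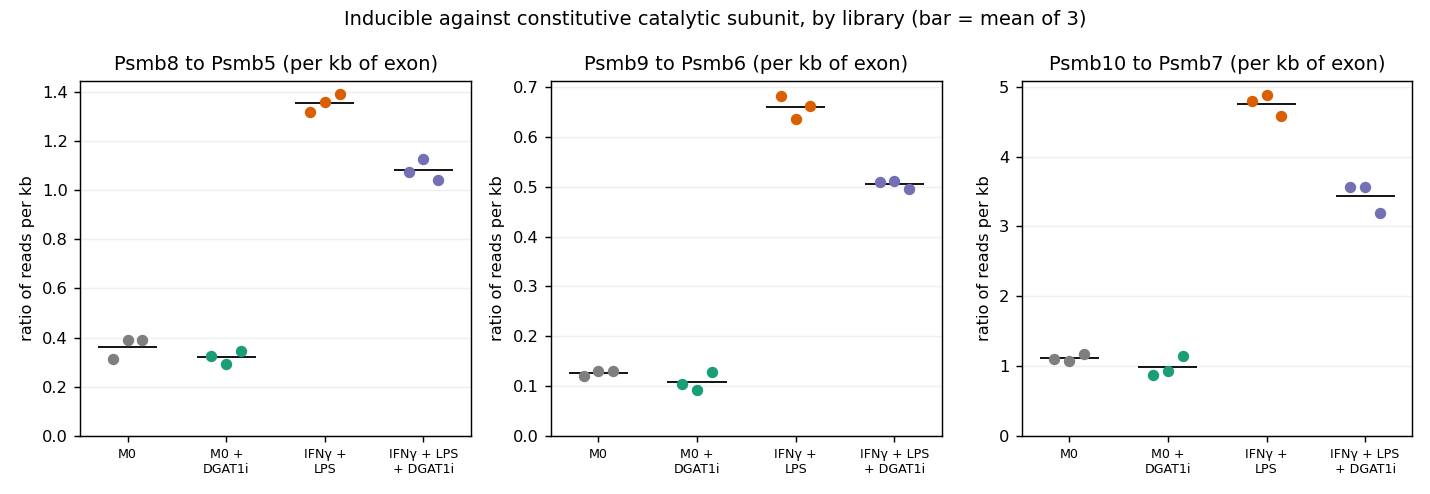
Ratio of reads per kb of exon of each inducible catalytic subunit to the constitutive one it replaces, in each library (points) with the mean of 3 (bar). All axes start at 0. The ratios are highest in IFNγ + LPS (means 1.36, 0.660 and 4.76), lower with DGAT1i (1.08, 0.506 and 3.44) and lowest in the resting groups.

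The rest of the pathway was described from 4 lists. Among 15 other class I and class I-like heavy chains, 11 were tested and 10 rose with IFNγ + LPS, all over 2-fold (15% of all genes), while H2-Q1, H2-Q2, H2-Q10 and H2-T3 had at most 0.12 CPM in the mean of any group. H2-Q6 rose most (log2 fold change 7.69), from 1.74, 2.26 and 2.37 CPM to 409.7, 490.2 and 430.1 CPM, followed by H2-Q7 (6.78). H2-T23, whose product Qa-1 presents leader peptides of other class I chains, rose by 3.76. Mr1, which presents vitamin B metabolites, had a log2 difference of -0.20 (edgeR adjusted p = 0.242). It passed as lower (-0.67) only where library sizes alone were used, a scaling that moves the median of all genes to -0.46.

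With DGAT1i in IFNγ + LPS, 5 of these 11 fell and 4 rose, beside 16.3% and 13.5% of all genes. The genes that fell were H2-Q6 (-0.75), H2-M3 (-0.68, which presents N-formyl peptides), H2-Q4 (-0.58), Cd1d1 (-0.58, which presents lipids to NKT cells) and H2-Q7 (-0.41). The genes that rose were H2-M2 (1.72), Mr1 (1.09), H2-T23 (0.23) and H2-T22 (0.15). H2-M2 had 8.42, 9.9 and 9.74 CPM without and 39.5, 25.9 and 27.3 CPM with DGAT1i, and Mr1 had 9.26, 11.9 and 10.7 CPM without and 21.4, 22.5 and 24.3 CPM with it. Neither gene's groups overlap. H2-T22 did not pass without the first or the third library of M1_18h or the second or the third of DGAT1i_M1_18h (adjusted p = 0.0817, 0.0706, 0.0983 and 0.0545), nor with no filter on low counts (0.211). In M0, H2-T23 (0.24) and Mr1 (0.43) rose and H2-Q4 fell (-0.58), the call of Mr1 being lost without the first library of M0 or the first or second of DGAT1i_18h (adjusted p = 0.123, 0.093 and 0.0639) and in DESeq2 (0.108). These 2 and 1 of 11 stand beside 11% and 13.4% of all genes. Stretches of at least 100 bases with 95% identity or more cover 43.8% of H2-Q6 in H2-Q7, 83.7% of H2-T10 in H2-T22 and 13.3% of H2-D1 in H2-Q7, so reads may have been split or lost between these genes.

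Of 8 loading and trimming genes, 4 rose and 3 fell with IFNγ + LPS, beside 37.1% and 36.2% of all genes. Tapbpl (TAPBPR, a relative of tapasin, log2 4.83) and the peptide-trimming enzyme Erap1 (1.43) and Lnpep (1.07) rose over 2-fold, while the general chaperones Calr (-0.65), Canx (-0.46) and Pdia3 (-0.51) fell. With DGAT1i in IFNγ + LPS, 4 fell, namely Tapbpl (-0.48), Lnpep (-0.31), Erap1 (-0.30) and the translocon subunit Sec61a1 (-0.24), and the cytosolic aminopeptidase Npepps rose (0.51), beside 16.3% and 13.5% of all genes. In M0 only Pdia3 passed (-0.15, edgeR adjusted p = 0.023), 1 of 8 beside the 13.4% of all genes that fell, and it did not without the third library of M0 (adjusted p = 0.165) or the second or the third of DGAT1i_18h (adjusted p = 0.0813 and 0.0742), nor with no filter on low counts (0.0533).

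Of 11 other proteasome genes, 9 rose and 2 fell with IFNγ + LPS, beside 37.1% and 36.2% of all genes. The subunits of the PA28 activator, Psme1 (log2 2.72) and Psme2 (3.15), rose, against 1.08, 1.17 and 1.13 for Psmb5, Psmb6 and Psmb7 and 1.07 for Pomp, the maturation factor. The assembly chaperones Psmg1 (-0.90) and Psmg2 (-0.58) fell. With DGAT1i in IFNγ + LPS, Psme1 (-0.36), Pomp (-0.23) and Psme2 (-0.19) fell, and Psmf1, the PI31 regulator (0.33), and Psme4, the PA200 activator (0.18), rose. These 3 and 2 of 11 stand beside 16.3% and 13.5% of all genes. The call of Psme4 was lost with no filter on low counts (adjusted p = 0.1) and without the second library of DGAT1i_M1_18h (0.05). In M0 Psme4 alone passed (0.31), 1 of 11 beside the 11% of all genes that rose.

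Of 16 genes of the interferon pathway and of the complex that binds class I and class II promoters, 13 rose with IFNγ + LPS and 1, the receptor chain Ifngr1 (-1.51), fell, beside 37.1% and 36.2% of all genes. Irf1 (log2 5.56), Jak2 (3.43) and Irf8 (2.41) were among the genes that rose, and the feedback inhibitor Socs1 (9.56) and the class II transactivator Ciita (8.28) rose most, from under 1 CPM. With DGAT1i in IFNγ + LPS, 3 of the 16 fell, beside 16.3% of all genes. The genes that fell were Irf9 (-0.53), Jak2 (-0.26, edgeR adjusted p = 7.58e-05) and Ifngr2 (-0.16). Irf1 had 1981, 1983 and 1995 CPM without and 1869, 1932 and 1973 CPM with it, a log2 difference of -0.05 (edgeR adjusted p = 0.542). Ifngr2 did not pass without the first or second library of M1_18h or of DGAT1i_M1_18h (adjusted p = 0.0965, 0.0693, 0.174 and 0.071), nor in DESeq2 (0.0784) or with only the 6 libraries compared (0.074). Irf8 did not pass in the main fit. It passed as higher with the replicate block, with only the 6 libraries compared and without the second library of DGAT1i_M1_18h.

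In M0, 4 of these 16 fell with DGAT1i, beside 13.4% of all genes, and 3 of the 4 calls were lost when single libraries were left out. Irf1 had 43.4, 44.3 and 38.7 CPM in M0 and 28.7, 32.4 and 30.2 CPM with DGAT1i (-0.47, edgeR adjusted p = 1.4e-06). Nfyc (-0.42), Ifngr1 (-0.20) and Irf8 (-0.15) fell less. Nfyc did not pass without the first library of M0 (adjusted p = 0.149) or the second or the third of DGAT1i_18h (adjusted p = 0.053 and 0.0572) or in DESeq2 (0.0795), nor Ifngr1 without the first of M0 (adjusted p = 0.0788) or the third of DGAT1i_18h (adjusted p = 0.052). Irf8, at an adjusted p of 0.0494, lost its call without each of the libraries of M0 (adjusted p = 0.0905, 0.145 and 0.0631), the first or second of DGAT1i_18h (adjusted p = 0.0946 and 0.238), or the first or the third of M1_18h (adjusted p = 0.0507 and 0.0534), and with no filter on low counts (0.124).

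**Figure D4:**
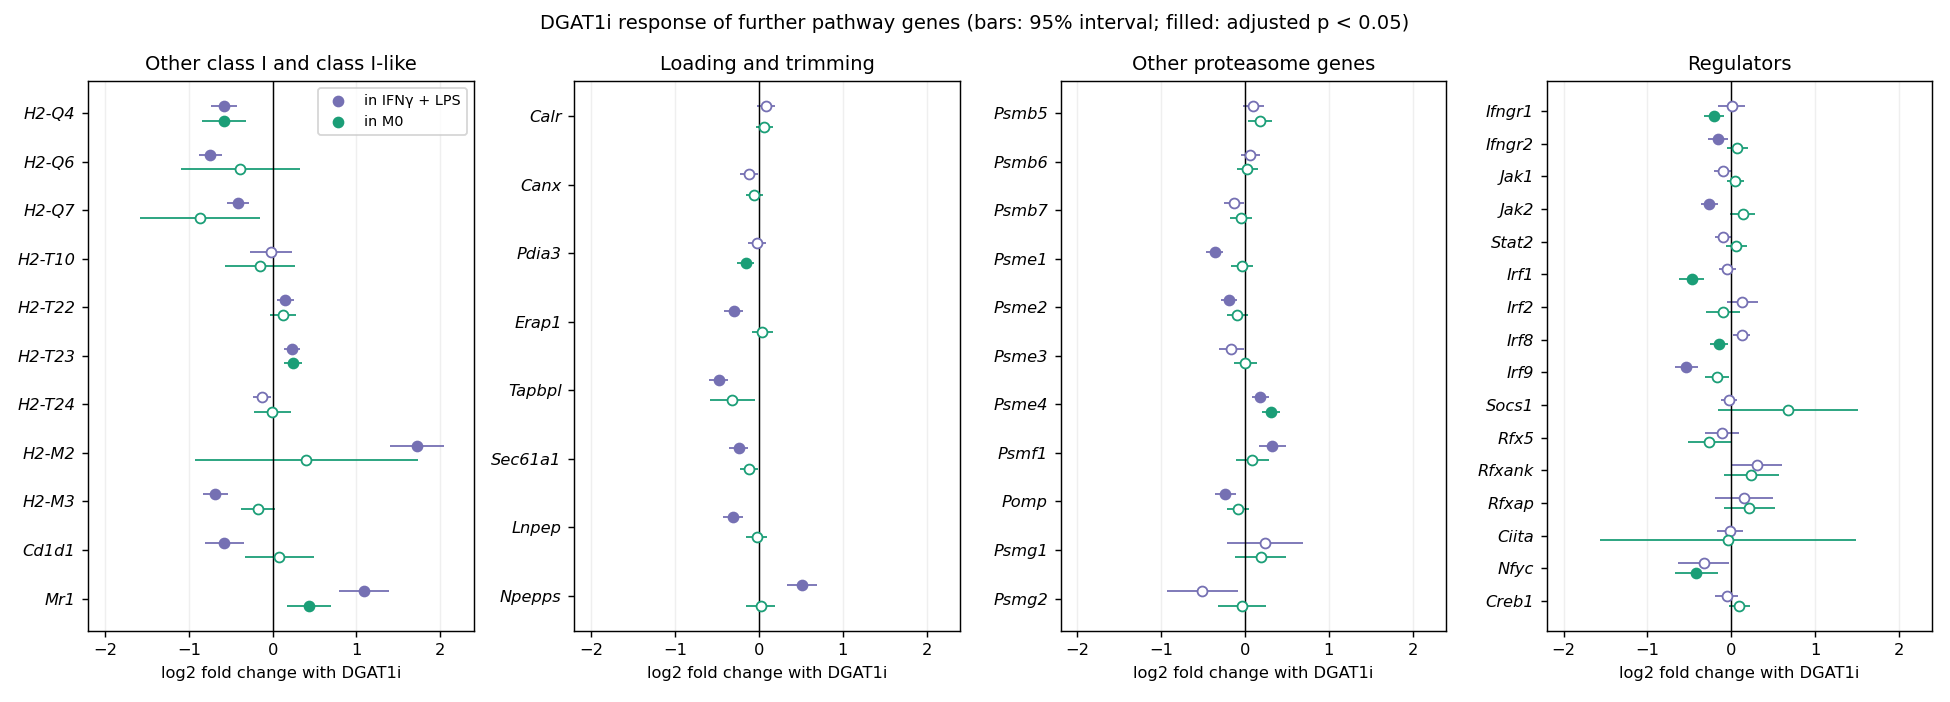
Log2 fold changes with against without DGAT1i for the tested genes of the 4 lists, in IFNγ + LPS and in M0, with 95% intervals of the edgeR fit. Filled points have an adjusted p under 0.05. H2-M2 (1.72) and Mr1 (1.09) stand furthest to the right and H2-Q6 (-0.75) is the lowest called gene in IFNγ + LPS.

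Outside the 10 genes, Psme2 was closest to their median pattern over 3 comparisons (the activation, and DGAT1i in activated and in resting cells), at a Euclidean distance of 0.0440 in log2 units among the 5203 genes whose average log2 CPM was 5 or more. It was followed by Ddx58 (RIG-I, distance 0.0939), Tor3a (0.110), Parp12 (0.122) and Birc3 (0.139). Their log2 fold changes with IFNγ + LPS lay between 3.08 and 3.28, and those with DGAT1i in IFNγ + LPS between -0.26 and -0.15. As the genes were picked by these same values, the narrow ranges follow from the choice. For Birc3 and Parp12 the fall with DGAT1i was lost when some single libraries were left out (Birc3 without the first or second of M1_18h or the third of DGAT1i_M1_18h, adjusted p = 0.124, 0.0555 and 0.145; Parp12 without the second of M1_18h or the first of DGAT1i_M1_18h, adjusted p = 0.0712 and 0.112). With only the 6 libraries compared it was lost for both (adjusted p = 0.0587 for Birc3 and 0.0546 for Parp12), and in DESeq2 for Birc3 (0.0696). The distance is a description of 12 libraries and was given no test.

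Some genes share exons with a neighbour, and the sources used here do not give the strand setting of the counting. Tap1 and Psmb9 overlap by 212 bases on opposite strands, and each rose. Nlrc5 shares 78 bases with the opposite-strand gene 9330175E14Rik, which had 20 to 25 reads in M0 and 193 to 205 reads in IFNγ + LPS. Tapbp shares 904 bases with Gm19412, which had at most 13 reads in any library, and 149 bases on its own strand with Zbtb22, which had 127 to 155 reads in IFNγ + LPS.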

How the data were processed

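RNA from 12 libraries of bone marrow-derived macrophages was measured. Per the labels, RNA was isolated with a PureLink kit, libraries were made with a NEBNext Single Cell/Low Input kit and run on a HiSeq, whereas the study's methods name an RNAqueous-Micro kit and a TruSeq stranded mRNA kit. The authors deposited raw read counts per gene with no normalization, and the submitters' processing notes name GRCm38 and DESeq2. Aligner, counter and strand setting: not given in the sources used here. Of 47937 identifiers, 47310 matched GENCODE M21 without their version.

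Counts were analysed with edgeR 4.0.16 in R 4.3.3: filterByExpr (11760 genes kept), TMM, a robust quasi-likelihood fit with 1 mean per group over all 12 libraries, and Benjamini-Hochberg adjustment over all genes tested, with a threshold of 0.05. Intervals are the estimate ± 1.96 SE. The fit was tested on simulated data with 200 changed genes. Totals of 4996014 to 6621671 reads limit genes near 1 CPM. Ratios of subunits were compared by exact permutation. Copies were found with BLAST 2.17.0. Named were the 10 genes, members of the lists and markers, and the 5 genes nearest to the median pattern. The members and lists were chosen with earlier results of these data known. Alternatives were RLE factors, library sizes alone, other filters, DESeq2 1.42.0, fewer libraries and a replicate block. No set test was run, 1 gene was left out of the lists and is not reported here, and list genes not named enter the counts.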

Additional observations from a re-analysis of the deposited data

Results flagged for a closer look

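The response to DGAT1i differed between IFNγ + LPS and M0 in a direct test (edgeR, adjusted p under 0.05) for 7 of the 10 genes and for 11 of the 46 other pathway genes tested, 4 of them above 0 and 7 below 0, beside 8.66% and 9.8% of all genes. The log2 response in IFNγ + LPS minus that in M0 was -0.34 for H2-K1, -0.26 for H2-D1, -0.38 for B2m, -0.27 for Tap1, -0.36 for Tap2, -0.23 for Psmb8 and -0.37 for Psmb10. Among the other genes, the difference was below 0 for H2-M3 (-0.51), Erap1 (-0.34), Lnpep (-0.29), Psme1 (-0.33), Ifngr2 (-0.23), Jak2 (-0.39) and Irf9 (-0.36). It was above 0 for Mr1 (0.66), Npepps (0.49), Irf1 (0.43) and Irf8 (0.27). Without single libraries, the call was lost for Mr1 (the third of M0, first of M1_18h, the third of DGAT1i_18h, adjusted p = 0.0584, 0.0571 and 0.0618) and Lnpep (first of M1_18h, second of DGAT1i_18h, the third of DGAT1i_M1_18h, adjusted p = 0.0711, 0.0691 and 0.056). For Ifngr2 it was lost under 8 of the 12 libraries left out in turn, under RLE size factors, under library sizes alone and in DESeq2. Its adjusted p was up to 0.158 over all alternatives. In DESeq2 the call was also lost for Mr1 (adjusted p = 0.0728), Lnpep (0.0636) and Irf9 (0.0534), and with no filter on low counts for Irf8 (0.0533).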

How the results depend on the processing

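The rise of all 10 genes with IFNγ + LPS, over 2-fold, was found under every alternative run, without and with DGAT1i. The count called with DGAT1i in IFNγ + LPS was 7 and ranged from 6 to 8, and that of the difference between the responses was 7 and ranged from 5 to 7. In M0 the count was 6, and it ranged from 2 to 6 with single libraries left out and was 8 under RLE size factors. Of 940 values of the 10 genes under alternatives, 887 kept their direction and side of the threshold, 31 lost the call, 7 gained it and 15 changed sign, all 15 of them values that had not passed.

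The sign changes were those of Psmb8 in M0 (-0.0184 under RLE factors, -0.0563 under library sizes alone, -0.00071 with a mean CPM filter of 1, -0.0196 in DESeq2, -0.00039 with the replicate block, and -0.0547 to 0.0455 with single libraries left out), Tapbp in IFNγ + LPS (0.0020 with only the 6 libraries compared) and Nlrc5 in the difference between the responses (-0.0266 with no filter, and -0.0823 to 0.111 with single libraries left out). Birc3 in M0 did so too (-0.0166 under RLE factors, -0.0546 under library sizes alone, -0.0175 in DESeq2, and -0.0344 to 0.0454 with single libraries left out). The cause was not tested. Library sizes alone moved the median of all genes with IFNγ + LPS to -0.46, and with DGAT1i throughout to -0.43.

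Whether replicate numbers pair the libraries is not settled. Same-numbered libraries of different groups had correlations of deviations between -0.11 and 0.11, only 2 of 18 over 0.1. Their median was 0.048, against -0.017 for libraries of other numbers, and 8 of 12 libraries correlated best with their own number. With the replicate block the counts were 10, 7, 6, 7 and 10 in the 5 comparisons, as without it. The subunit ratios kept their direction with 0.5 reads added and with each library left out. Another exon length scales a ratio alike in every library and so cannot change its direction.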
